A study of Drosophila melanogaster with 23 samples.

Results

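Adult males of Canton S were compared with adult males of Zimbabwe53 on 2 spotted 2-colour cDNA arrays of Drosophila melanogaster. The arrays were chosen by their labels alone, as those carrying these strains in the 2 channels, and they are 2 of 23 arrays in the series. One had Canton S in channel 1 and Zimbabwe53 in channel 2, and the other had the channels exchanged. They are called the Canton S-first array and the Zimbabwe53-first array below. Of 6101 features (printed spots) on the array, 4623 had a value on the Canton S-first array, 4853 on the Zimbabwe53-first array and 4555 on both, and these 4555 features are described here.

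Canton S is a common laboratory stock, and Zimbabwe53 is by its name one of 4 Zimbabwe strains in the series. The labels give no genotype beyond the strain names. The males of both strains were reared at 25 °C with no cycle of light and dark, collected within a day of eclosion and aged 3 to 4 days more without females. Each RNA extraction used 8 to 12 whole flies, and all extractions of a strain were combined into a single pool. The 2 arrays are therefore technical repeats of 1 pool per strain. Their spread measures labelling and hybridisation and says nothing about flies, rearings or other males of the strain, so no test was made on the 2 arrays alone. Of the other 19 arrays that set different strains against each other, many carried one of these pools beside another of 6 strains (Oregon R, Hikone R, St Louis, Zimbabwe2, Zimbabwe29 and Zimbabwe30). They gave a separate estimate of the same difference. An array of Canton S with itself and an array of Zimbabwe53 with itself served as background.

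On a 2-colour array both cDNA pools compete for the same spot, and the spot gives the ratio of the labelled cDNAs, not a level of either. Dyes differ in how well they label a given sequence, and an exchange of the dyes between pools turns the strain difference round while the dye effect keeps its sign. Whole males hold muscle, gut, fat body, nervous system and a large amount of testis and accessory gland. A ratio of whole-body pools cannot tell apart fewer cells of a type and less RNA per cell. Females of some Zimbabwe strains are known to discriminate against males of the cosmopolitan strains found elsewhere, a well-studied case of divergence within a species.

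Neither the base nor the numerator of the deposited log ratios is stated. They were read as log10, turned to log2, centred on the median of each array and coded as Canton S minus Zimbabwe53, on the assumption that channel 1 is the numerator. Whether a positive value means more RNA in Canton S or in Zimbabwe53 is not settled, and if the numerator is channel 2 every sign below turns. Genes are therefore placed on 2 sides, each named after its leading gene: positive values form the Mipp1 side and negative values the CG4757 side. All genes on a side were higher in the same strain, whichever strain that was. Folds are sizes without direction.

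Among named genes, the largest differences between Canton S and Zimbabwe53 males were in an inositol phosphatase gene, an esterase gene, a gene for a cell-surface binding protein and a vanin relative. Mipp1 differed 3.88-fold, CG4757 5.35-fold, cDIP 3.33-fold and vanin-like 2.91-fold. Cytochrome P450 genes and genes of fatty acid metabolism were also among those beyond 1.5-fold on both arrays. In total, 35 of 1332 named genes (2.63%) lay beyond 1.5-fold on the same side on both arrays, 15 on the Mipp1 side (1.13%) and 20 on the CG4757 side (1.5%). Among all 4555 features the count was 214 (4.7%), with 79 on the Mipp1 side (1.73%) and 135 on the CG4757 side (2.96%). A gene or feature that met this rule is called divergent below, which describes these arrays and is no test.

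**Figure D1:**
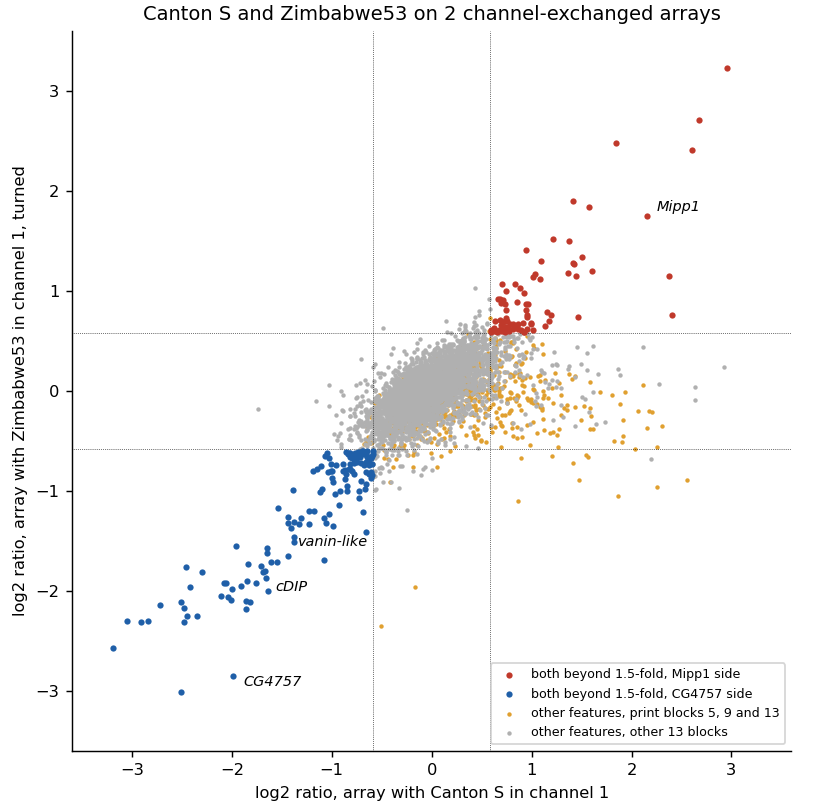
Each point is a feature, with the log2 ratio on the Canton S-first array across and the turned log2 ratio on the Zimbabwe53-first array upwards, and dotted lines at 1.5-fold. The 79 divergent features of the Mipp1 side lie at the upper right and the 135 of the CG4757 side at the lower left. Features of print blocks 5, 9 and 13 reach far to the right at heights near or below 0, as do some of block 12.

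Most of the divergence was small. The 35 divergent genes ranged from 1.56-fold to 5.35-fold, with a median of 1.81-fold. Only 10 of them were beyond 2-fold on both arrays, 3 on the Mipp1 side and 7 on the CG4757 side, and none was beyond 4-fold on both. The median size over all 1332 genes was 0.17 on the log2 scale. The median SD between the 2 arrays was 0.13 log2 in the divergent genes and 0.12 in all genes.

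Mipp1 (Entrez 39841, arm 3L) encodes a multiple inositol polyphosphate phosphatase, an enzyme that removes phosphates from inositol phosphates. Its log2 ratio was 2.16 on the Canton S-first array and 1.76 on the Zimbabwe53-first array, a mean of 1.96 ± 0.28 (SD, n = 2 arrays). It stood at 0.16 when Canton S was set against itself and at 0.12 when Zimbabwe53 was. The 2 arrays of the strains were thus far from the background arrays and on the same side. The 19 other arrays gave 1.73 ± 0.12 (SE), which passed limma's moderated test with a Benjamini-Hochberg adjusted p = 5.1e-07. Chains of arrays through another strain gave 1.83 through Oregon R, 1.83 through Zimbabwe30 and 1.51 through Zimbabwe2. These chains are drawn from the same 19 arrays as the fit and are no further evidence. The chain through Zimbabwe2 has no exchanged channels, so a dye effect does not cancel in it.

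The same fit was used for every gene below: strain levels were fitted to the 19 other arrays, with p-values adjusted over 4735 features. Since those arrays carried the same RNA pools, their errors and p-values cover the spread between arrays only. In this fit 611 features (12.9%) passed at an adjusted p under 0.05, 250 on the Mipp1 side and 361 on the CG4757 side, with a median SE of 0.11 log2. The count was 403 without the array of Canton S and Zimbabwe30 that had Zimbabwe30 in channel 1. Among the 1283 named genes that were also on both direct arrays, 137 passed (10.7%).

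CG4757 (arm 3R), a predicted esterase of the carboxylesterase family, had the largest ratio of any named divergent gene. Its log2 ratio was -1.99 on the Canton S-first array and -2.85 on the Zimbabwe53-first array, so the size differed between the arrays although both were far out. The background arrays gave 0.18 for Canton S with itself and -0.44 for Zimbabwe53 with itself. From the other arrays the difference was -2.62 ± 0.11 (SE, adjusted p = 2.4e-09 in limma), nearer to the Zimbabwe53-first array. The chains through Zimbabwe30 and Zimbabwe2, drawn from those same arrays, gave -2.69 and -2.80, the latter without exchanged channels.

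Next on that side was cDIP (arm 3R), whose product binds Dpr proteins, cell-surface molecules of neurons. It had -1.67 on the Canton S-first array and -1.80 on the Zimbabwe53-first array (mean -1.73 ± 0.10, SD, n = 2 arrays). From the other arrays came -1.43 ± 0.13 (SE, adjusted p = 6.1e-06 in limma). On the X, vanin-like, a relative of the pantetheinases that release pantothenate and cysteamine, had -1.43 and -1.65, and the other arrays gave -1.50 ± 0.12 (SE, adjusted p = 2.2e-06 in limma). CG13325 (arm 2R) followed with -1.38 and -1.51. Its estimate from the other arrays was -1.18 ± 0.12 (SE, adjusted p = 2.6e-05 in limma). For these genes both direct arrays and the other arrays lay on the same side, each by more than 2-fold.

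**Figure D2:**
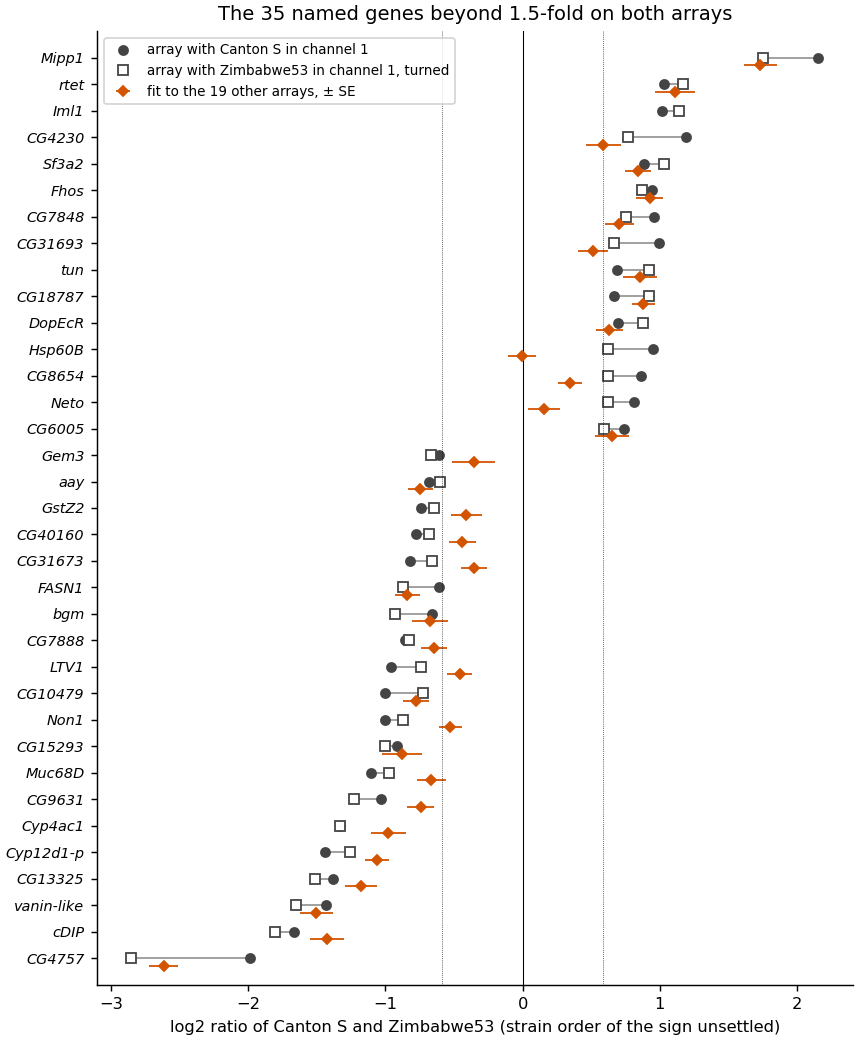
The log2 ratio of each of the 35 divergent genes on the Canton S-first array (filled circles) and the turned Zimbabwe53-first array (open squares), with the fit to the 19 other arrays and its SE below (diamonds), and dotted lines at 1.5-fold. Diamonds follow the arrays for most genes and lie near 0 for Hsp60B (log2 -0.01) and at 0.16 for Neto.

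Detoxification genes encode enzymes that oxidise foreign compounds or attach sugars or glutathione to them, and they are known for their role in resistance to insecticides in this species. Of 8 measured detoxification genes 3 were divergent, all on the CG4757 side, against 2.63% of all named genes, and the median size of the 8 was 0.49 log2 against 0.17 over all genes. This list, like those below, was chosen with earlier results of these data known, so its counts describe and do not test. Cyp12d1-p, a cytochrome P450 (arm 2R), had -1.44 on the Canton S-first array and -1.26 on the Zimbabwe53-first array, a 2.55-fold mean. In the other arrays the difference was -1.06 ± 0.09 (SE, adjusted p = 3e-06 in limma). Some flies carry a near-identical further copy of this gene, and the spotted cDNA would bind the RNA of both.

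The P450 gene Cyp4ac1 (arm 2L) gave nearly the same ratio on both arrays, -1.33 on each. From the other arrays its difference was -0.98 ± 0.13 (SE, adjusted p = 0.00016 in limma). GstZ2 (arm 3R), a glutathione S-transferase of the zeta class, had -0.74 and -0.65, and -0.41 ± 0.11 from the other arrays (SE, adjusted p = 0.03 in limma). That call was lost in 4 of 26 alternative fits. Ugt35A1 (arm 3R), which attaches sugars to small lipophilic molecules, passed on the opposite side from these 3 genes. It had 0.61 and 0.52, just short of 1.5-fold on the Zimbabwe53-first array, and 0.87 ± 0.11 from the other arrays (SE, adjusted p = 9.6e-05 in limma). The remaining members did not pass: GstE13 had -0.59 and -0.26 on the arrays, Cyp6u1 0.24 and 0.32, Cyp4g15 0.10 and 0.13, and Ugt50B3 0.03 and -0.13. The other arrays thus called 4 of the 8 genes, 3 on the CG4757 side and 1 on the Mipp1 side, where 10.7% of all named genes passed.

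Fatty acids are built by fatty acid synthase, activated by acyl-CoA synthetases and stored as triglyceride in the fat body. The list of fatty acid and hydrocarbon synthesis held 7 measured genes, among them genes of fat storage and breakdown. Each gene kept its own side on both arrays, as 72.3% of all features did, 4 on the CG4757 side and 3 on the Mipp1 side. Their median size was 0.43 log2, against 0.17 over all genes. FASN1 (arm 2L), the fatty acid synthase, had -0.61 on the Canton S-first array and -0.88 on the Zimbabwe53-first array, 1.67-fold in the mean. Its estimate from the other arrays was -0.84 ± 0.09 (SE, adjusted p = 3.5e-05 in limma). The acyl-CoA synthetase gene bgm (arm 2L), which acts on very long chain fatty acids, had -0.66 and -0.93, and -0.68 ± 0.13 from the other arrays (SE, adjusted p = 0.0052 in limma). These 2 of 7 were the divergent members, against 2.63% of all named genes.

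Of the genes for fat storage and breakdown in the list, bmm and mdy lay on the CG4757 side and Lsd-2 on the Mipp1 side, and none was divergent. The brummer triglyceride lipase gene bmm (arm 3L) had -0.54 and -0.61, and -0.72 ± 0.12 from the other arrays (SE, adjusted p = 0.00096 in limma). In mdy, the diacylglycerol acyltransferase gene (arm 2L), the arrays differed: it had -0.08 on the Canton S-first array and -0.78 on the Zimbabwe53-first array. The other arrays gave -0.69 ± 0.09 (SE, adjusted p = 0.00019 in limma), near the Zimbabwe53-first array. Acsl (arm 2R), another acyl-CoA synthetase, lay on the Mipp1 side with 0.57 and 0.26, and 0.49 ± 0.12 from the other arrays (SE, adjusted p = 0.015 in limma). The lipid droplet protein gene Lsd-2 had 0.15 and 0.17, and the elongase gene bond 0.50 and 0.12, and neither passed (adjusted p = 0.88 and 0.97 in limma). In all, 5 of the 7 genes passed, 4 on the CG4757 side and 1 on the Mipp1 side. Among all named genes in the fit 10.7% passed. With the list chosen after earlier results of these data were known, this comparison is no test of the list.

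**Figure D3:**
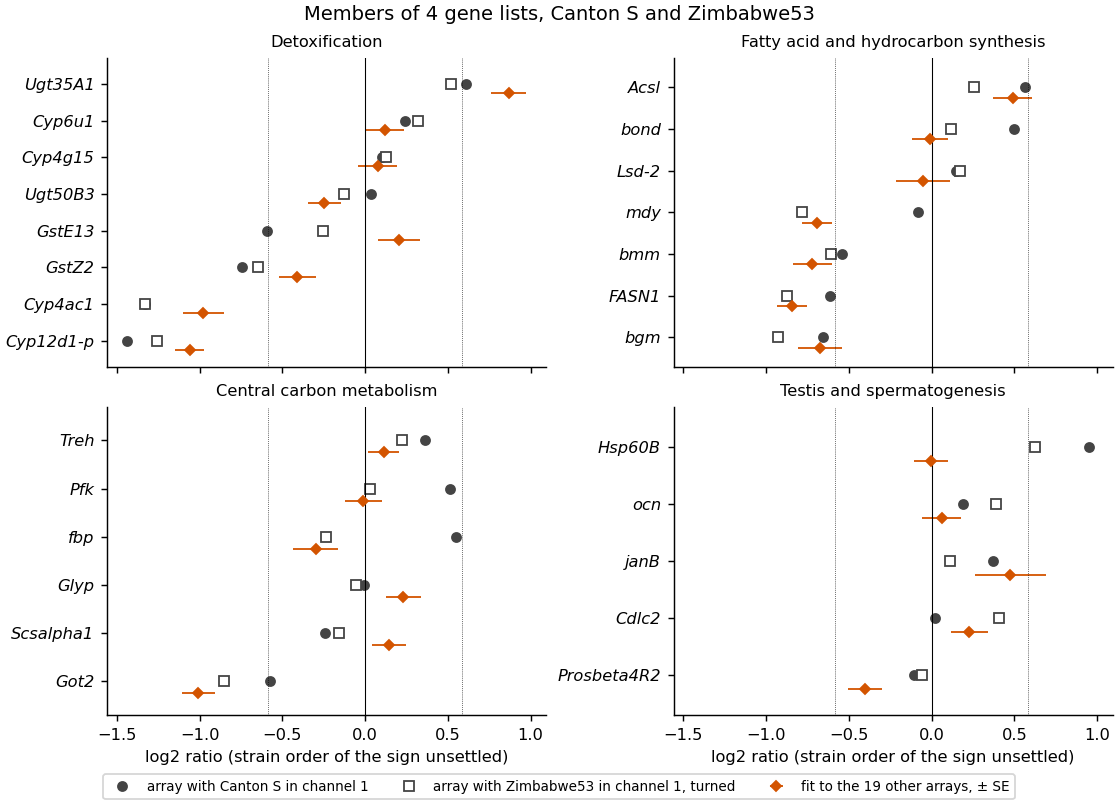
Log2 ratios of the measured members of 4 gene lists on the Canton S-first array (filled circles) and the turned Zimbabwe53-first array (open squares), with the fit to the 19 other arrays and its SE (diamonds). Cyp12d1-p and Cyp4ac1 lie furthest on the CG4757 side, the 2 arrays take opposite sides for fbp, and the fit for Hsp60B lies at -0.01.

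Central carbon metabolism had 1 of 6 genes past the test in the other arrays, near the 10.7% of all named genes, and none divergent. Got2 (arm 2L), the mitochondrial aspartate aminotransferase, had -0.58 and -0.85 and missed the rule narrowly on the Canton S-first array. The other arrays gave -1.01 ± 0.10 (SE, adjusted p = 1.5e-05 in limma). Phosphofructokinase, Pfk, had 0.51 and 0.03, the trehalase gene Treh 0.36 and 0.23, the glycogen phosphorylase gene Glyp -0.004 and -0.06, and Scsalpha1, a succinyl-CoA synthetase subunit, -0.24 and -0.16. The arrays took opposite sides for the fructose bisphosphatase gene fbp, with 0.55 and -0.24. None of these 5 passed in the other arrays, where adjusted p in limma ranged from 0.17 to 0.97.

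Non1 and LTV1, set beside each other here after their values were seen, act in the assembly of ribosomes and were divergent on the CG4757 side. Non1 (arm 2R), a nucleolar GTPase needed for the large subunit, had -1.0 and -0.87, and -0.53 ± 0.09 from the other arrays (SE, adjusted p = 0.00096 in limma). LTV1 (arm 2R), which takes part in the assembly of the small subunit, had -0.96 and -0.74, and -0.46 ± 0.09 from the other arrays (SE, adjusted p = 0.0052 in limma). In both genes the direct arrays gave about 0.4 log2 more than the other arrays, a gap that did not pass its own test (adjusted p = 0.13 and 0.19 in limma). The ribosomal protein genes RpL32 and RpS28b had -0.64 and -0.38, and -0.59 and -0.42, but -0.06 and -0.04 from the other arrays. RpS12 had 0.15 and 0.26, RpS10a had 0.05 and -0.05, and none of the 4 ribosomal protein genes passed.

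On the Mipp1 side, the genes below Mipp1 were of mixed function. The transporter gene rtet (arm 3R), of the major facilitator superfamily, had 1.03 and 1.17, a mean of 2.15-fold. Other arrays gave 1.11 ± 0.15 (SE, adjusted p = 0.00025 in limma). Iml1 (arm 3L), a subunit of the GATOR1 complex that restrains the growth kinase TORC1, had 1.02 and 1.14. It lies in print block 12, was measured on only 15 arrays and was not fitted. Sf3a2 (arm 3L), a splicing factor of the U2 particle, had 0.89 and 1.03, and 0.84 ± 0.10 from the other arrays (SE, adjusted p = 5.5e-05 in limma).

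Fhos (arm 3L), a formin that organises actin, was present as 2 features, and both were divergent. The first had 0.94 and 0.87, and the other 1.41 and 1.28. From the other arrays they gave 0.93 and 1.00, with adjusted p = 2.5e-05 and 1.6e-05 in limma. These features differed in size on the direct arrays and shared their side. DopEcR (arm 3L), a membrane receptor for dopamine and ecdysteroids, had 0.70 and 0.88, and 0.63 ± 0.10 from the other arrays (SE, adjusted p = 0.00074 in limma). CG4230, CG7848, CG31693, tun, CG18787, CG8654 and CG6005 completed the genes that passed on this side, with folds of 1.59 to 1.97 and adjusted p in limma from 1.5e-05 to 0.02. Another feature of tun had 0.50 and 0.38, so it was not divergent, and it was not fitted.

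The remaining genes of the CG4757 side included the mucin gene Muc68D (arm 3L), with -1.10 and -0.98, and aay (arm 3L), the phosphoserine phosphatase of serine synthesis, with -0.68 and -0.60. The other arrays gave -0.66 ± 0.11 for Muc68D and -0.75 ± 0.09 for aay (SE, adjusted p = 0.00086 and 0.00012 in limma). CG9631, CG15293, CG10479, CG7888, CG31673 and CG40160 also passed, with folds of 1.66 to 2.19. The weakest of these was CG31673, at -0.35 ± 0.10 (SE, adjusted p = 0.027 in limma), which passed in 21 of 26 alternative fits. CG8654 on the Mipp1 side passed in 25 of 27.

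Of the 34 divergent genes that could be fitted, 31 passed in the other arrays on the same side. The 3 that did not were Hsp60B, Neto and Gem3. Neto (X), an auxiliary subunit of glutamate receptors at the neuromuscular junction, had 0.81 and 0.62 on the direct arrays and 0.16 ± 0.12 from the other arrays (SE, adjusted p = 0.43 in limma). Gem3 (arm 3L), a helicase of the SMN complex that assembles spliceosomal particles, had -0.61 and -0.67, and -0.36 ± 0.16 from the other arrays (SE, adjusted p = 0.16 in limma). Its missing call thus came with the same direction and a large error. Over all features, 208 divergent ones were fitted, of which 170 passed on the same side, 37 did not pass and 1 passed on the opposite side.

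Hsp60B (arm 2L), a mitochondrial chaperonin relative needed in the testis, was the one divergent named gene whose direct value differed from that of the other arrays past the test. It had 0.95 on the Canton S-first array and 0.63 on the Zimbabwe53-first array, and the Canton S array with itself gave 0.12. Across the other arrays it was -0.01 ± 0.10 (SE, adjusted p = 0.99 in limma). The difference between the direct pair and the other arrays was 0.79 ± 0.16 (SE, adjusted p = 0.025 in limma). With equal weights or with arrays scaled to the same spread, this difference did not pass (adjusted p = 0.083 and 0.069 in limma). Without the Canton S-first array it was 0.73 with an adjusted p of 0.61 in limma, and it passed in 22 of 28 alternatives.

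The testis list held 5 measured genes with a median size of 0.24 log2. Each kept its own side on both arrays, as 72.3% of all features did, 4 on the Mipp1 side and Prosbeta4R2 on the CG4757 side. Hsp60B alone was divergent. The janus genes janB and ocn (arm 3R), a tandem pair expressed in the male germ line, had 0.37 and 0.11, and 0.19 and 0.39. Canton S with itself gave 0.45 for janB and 0.26 for ocn, above their values on the Canton S-first array. Zimbabwe53 with itself gave 0.04 and -0.04. Cdlc2, a dynein light chain gene, had 0.02 and 0.41. Prosbeta4R2, which encodes a variant proteasome subunit of the testis, had -0.11 and -0.06, but -0.40 ± 0.10 from the other arrays (SE, adjusted p = 0.018 in limma), the single call of the list.

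Repeated features of ocn gave more on the direct arrays than elsewhere. Its 9 features all lay on the Mipp1 side on both arrays, with means from 0.29 to 0.76 and a median of 0.65. They ran from 0.19 to 0.96 on the Canton S-first array and from 0.39 to 0.65 on the Zimbabwe53-first array, and 3 of them were divergent. Those measured on Canton S with itself were all positive there too, from 0.20 to 0.36. On Zimbabwe53 with itself they ran from -0.15 to 0.08. In the other arrays the same 9 features had a median of 0.19, with 1 past the test, the feature at 0.34 (adjusted p = 0.036 in limma). The features share their pools and slides and are not replicates.

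Among markers of other male tissues, the ejaculatory bulb protein gene Ebp had 0.18 and -0.33, on opposite sides. It was the only measured gene of the list of accessory gland and seminal proteins. No gene of the ovary and yolk list was among the named features, so a check for female RNA could not be made. The files hold ratios, and a marker could only be seen as measured or not. The part of testis content in the values of Hsp60B and ocn was not tested.

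Lists of other functions held few or no divergent genes. In the digestive hydrolases, yip7 (arm 3L), a serine protease relative, had 0.72 and 0.54, and 1.02 ± 0.12 from the other arrays (SE, adjusted p = 4.8e-05 in limma). For sphe (X), of the same family, the direct arrays took opposite sides at 0.46 and -0.44, and the other arrays gave -0.37 ± 0.09 (SE, adjusted p = 0.012 in limma). Muscle (4 measured genes), proteasome (5) and immune (1) lists each had 1 gene past the test and none divergent, where 10.7% of all named genes passed. These were up, a troponin T gene, at 0.34 from the other arrays, Rpn2, a subunit of the proteasome cap, at -0.32, and vir-1, a gene induced by virus infection, at -0.39 (adjusted p = 0.036, 0.044 and 0.044 in limma). On the direct arrays up had 0.14 and 0.28, Rpn2 had -0.15 and -0.10, and vir-1 had -0.41 and -0.58.

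In the remaining lists no gene passed in the other arrays. Among oxidative phosphorylation genes, ND-51 had -0.41 and -0.41, and COX7C had -0.53 and -0.21. The vision and clock genes Galphaq, cwo, Pdp1 and rdgA had -0.66 and -0.31, 0.47 and 0.35, 0.08 and 0.20, and -0.10 and 0.12. Among chaperones other than Hsp60B, Gp93 had 0.51 and 0.06, and the CCT subunits, Droj2 and the rest stayed within 0.28 on both arrays. The 5 cuticle genes stayed within 0.35, and the odorant-binding protein gene Obp19d had -0.66 and -0.18. The SE of these genes in the other arrays ranged up to 0.20 log2.

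Divergent genes were found on each large chromosome arm. There were 2 of 239 measured genes on the X (0.837%), 9 of 235 on 2L (3.83%), 7 of 241 on 2R (2.9%), 11 of 270 on 3L (4.07%), 6 of 331 on 3R (1.81%) and none of 16 on chromosome 4. The X was lowest of the large arms in this count. In the fit to the other arrays, which did not use the direct arrays, 22 of 226 X-linked genes passed (9.73%), against 9.69% on 3L, 10.0% on 3R, 12.2% on 2L and 12.8% on 2R. The X and 3L were thus alike there, and the low count on the X was seen only with the threshold on both direct arrays. The difference between arms was not tested.

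The levels of the 6 other strains were set beside those of Canton S and Zimbabwe53. For 31 genes that were divergent and passed, fitted levels from the 19 other arrays placed each strain nearer to Canton S or nearer to Zimbabwe53. All 6 were nearer to Canton S in 9 genes: Mipp1, Sf3a2, CG7848, CG31693, CG18787, Muc68D, CG15293, LTV1 and CG7888. In 7 genes 5 of the 6 were nearer to Canton S, in 6 genes 4, in 2 genes 3, in 5 genes 2, and in 1 gene each 1 and 0. These counts, and those of the Zimbabwe strains below, were made for the 31 genes only. No share over all fitted genes stands beside them, so they do not show these genes to be unusual. The strain levels of these genes had SEs from 0.07 to 0.23 log2, and a strain midway between the 2 was placed by the fitted value alone, with no test of its place.

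**Figure D4:**
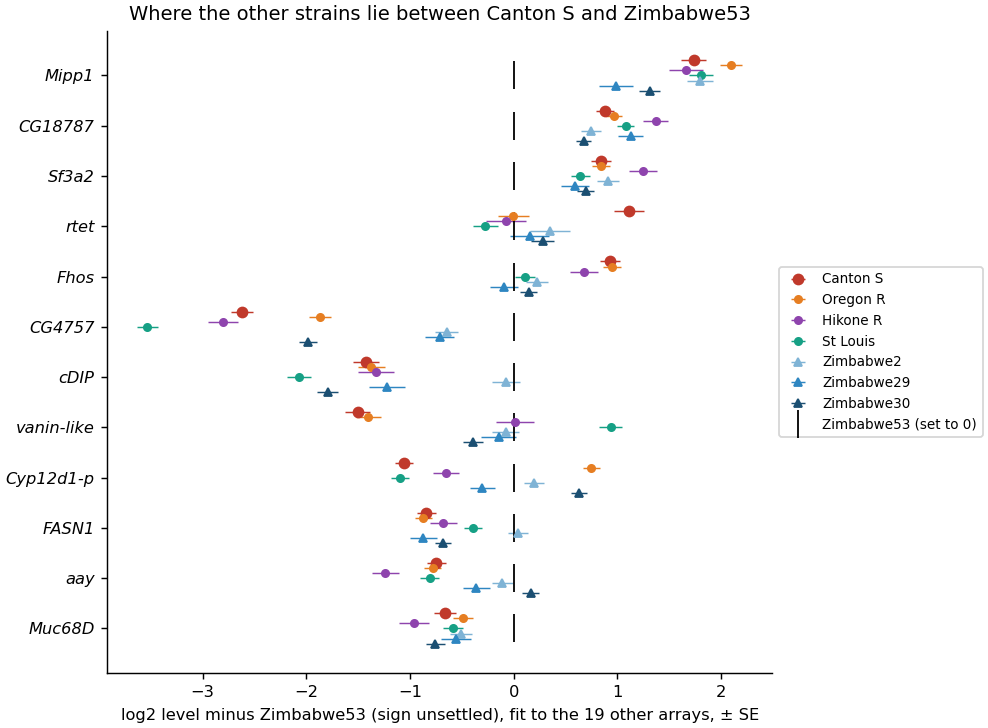
Fitted log2 levels relative to Zimbabwe53 (the bar at 0) of Canton S and the 6 other strains, with SEs, for 12 of the 35 divergent genes, from the 19 other arrays. All strains lie nearer to Canton S than to Zimbabwe53 in Mipp1, CG18787, Sf3a2 and Muc68D, though Zimbabwe29 is close to midway in Mipp1. Canton S lies furthest from Zimbabwe53 in rtet, and the 6 other strains lie nearer to Zimbabwe53 than to Canton S. In aay the Zimbabwe strains (triangles) lie nearer to 0 than the others do.

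In Mipp1 every other strain lay on the Canton S side of Zimbabwe53. Relative to Zimbabwe53, the log2 level was 1.73 in Canton S, 2.10 in Oregon R, 1.66 in Hikone R, 1.81 in St Louis, 1.80 in Zimbabwe2, 0.99 in Zimbabwe29 and 1.31 in Zimbabwe30. In CG18787 the 7 strains lay from 0.68 to 1.37 away from Zimbabwe53, and in Sf3a2 from 0.59 to 1.25. For rtet the reverse was seen: Canton S was 1.11 away from Zimbabwe53, and the 6 others lay between -0.27 and 0.35, all nearer to Zimbabwe53.

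The split between strains followed their origin in 1 of the 31 genes, aay, where Oregon R, Hikone R and St Louis lay nearer to Canton S and the 3 other Zimbabwe strains nearer to Zimbabwe53. Relative to Zimbabwe53, aay stood at -0.75 in Canton S, from -1.24 to -0.78 in the first 3 strains, and at -0.11 in Zimbabwe2, -0.36 in Zimbabwe29 and 0.16 in Zimbabwe30. Zimbabwe29 was close to midway. Levels of Fhos were 0.93 in Canton S, 0.95 in Oregon R and 0.68 in Hikone R. For the others they were 0.11 in St Louis, 0.22 in Zimbabwe2, -0.09 in Zimbabwe29 and 0.14 in Zimbabwe30, so St Louis lay with the Zimbabwe strains. In cDIP only Zimbabwe2, at -0.08, lay near Zimbabwe53, while the other 6 strains, Canton S included, lay between -2.07 and -1.22. For vanin-like, Oregon R at -1.40 was with Canton S at -1.50, 4 strains lay between -0.39 and 0.02, and St Louis lay at 0.94 on the other side of Zimbabwe53. In Cyp12d1-p St Louis, at -1.10, was with Canton S, at -1.06, while Oregon R and Zimbabwe30 were at 0.75 and 0.63 on the other side of Zimbabwe53.

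Among the 31 genes, CG4757 was the one with the largest ratio between Canton S and Zimbabwe53, and its other strains lay far apart. Relative to Zimbabwe53 it stood at -2.62 in Canton S, -3.53 in St Louis, -2.80 in Hikone R, -1.98 in Zimbabwe30, -1.87 in Oregon R, -0.72 in Zimbabwe29 and -0.65 in Zimbabwe2. FASN1 was at -0.84 in Canton S, and 4 other strains lay between -0.87 and -0.68, with St Louis at -0.39 and Zimbabwe2 at 0.04. All 3 other Zimbabwe strains were nearer to Zimbabwe53 than to Canton S in 5 of the 31 genes.

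Precision differed between the 2 arrays. Over the 4555 features the SD of log2 ratios was 0.50 on the Canton S-first array and 0.37 on the Zimbabwe53-first array, against 0.17 for Canton S with itself and 0.14 for Zimbabwe53 with itself. After the turn 3294 features (72.3%) lay on the same side, and the correlation across features, which are not replicates, was 0.63. As many as 455 features were beyond 1.5-fold on the Canton S-first array alone, against 89 on the Zimbabwe53-first array alone. Deviations from the other arrays had an SD of 0.42 on the Canton S-first array and 0.21 on the Zimbabwe53-first array. The same rule applied to the 2 arrays of a strain with itself gave 0 of 3773 features, which by counting alone allows a share of up to 0.0795% if features are taken as independent. That limit holds for arrays of their smaller spread only, since the direct arrays put 11 of 4555 features beyond 1.5-fold on opposite sides.

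Features are numbered by what reads as print block, row and column, and blocks 5, 9 and 13 were singled out after their values were seen. Their median log2 ratios there were 0.19, 0.11 and 0.26, while on the Zimbabwe53-first array they were -0.05, -0.03 and -0.12 after the turn. The Canton S array with itself, whose title has the same stem as that of the Canton S-first array, gave 0.14, 0.20 and 0.21 in these blocks. Zimbabwe53 with itself, whose title has the same stem as that of the Zimbabwe53-first array, gave 0.02, 0.00 and 0.02. Blocks 12 and 16 were also high on the Canton S-first array, at 0.12 and 0.18, but were above 0 on the Zimbabwe53-first array too, at 0.09 and 0.05. The 2 arrays also lay apart in block 1, at 0.09 and -0.06, and in block 11, at -0.11 and 0.04. Block 12 had the largest SD of any block on the Canton S-first array, 0.70. The SDs of blocks 5, 9 and 13 were 0.56, 0.57 and 0.59. Block 12 holds the divergent genes Hsp60B, CG4230 and Iml1, the last without a fit to the other arrays. Within the 3 blocks, which held 862 of the features (18.9%), the turned arrays correlated at 0.41, against 0.75 in the other 13 blocks. Mipp1, CG8654, Neto, CG4757, vanin-like, FASN1, Gem3 and aay lay in these blocks. Without them 27 divergent genes and 181 divergent features were left, and the part of the blocks in the values of the 8 genes was not tested.

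**Figure D5:**
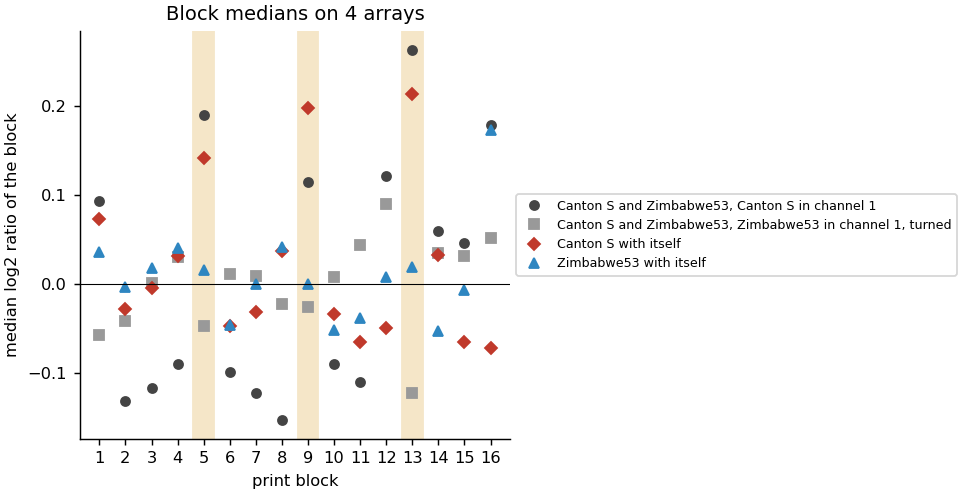
Median log2 ratio of each of the 16 print blocks on the Canton S-first array (circles), the turned Zimbabwe53-first array (squares), Canton S with itself (diamonds) and Zimbabwe53 with itself (triangles), with blocks 5, 9 and 13 shaded. In the shaded blocks the Canton S-first array and Canton S with itself lie between 0.11 and 0.26, and the other arrays between -0.12 and 0.02.

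Genes on which the 2 arrays disagreed most were chosen for that and are described without a test. Both in block 12, APC7 had 2.20 on the Canton S-first array and -0.68 on the Zimbabwe53-first array, and CG12164 had 2.92 and 0.24. PCID2 had 1.83 and -0.50. CG4332 had 1.41 and -0.73, and the representative feature of Imp, an mRNA-binding protein gene, had 1.61 and -0.38. For CG12164 the array of Canton S with itself gave 1.46 where 0 is the true ratio. Another feature of Imp was divergent on the CG4757 side with -0.87 and -0.88, and the other had -0.16 and -0.19, so the features of this gene disagreed. In all, 11 features were beyond 1.5-fold on opposite sides, 10 of them in blocks 5, 9 and 13.

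Whether the direct pair gave a difference unlike the one reached through other strains was tested for 4380 features. In limma 97 of them (2.21%) passed at an adjusted p under 0.05, and 712 had an unadjusted p under 0.05. With equal weights the count was 6 and with arrays scaled to the same spread 1, so it depended on these settings. Of the 97, 83 were positive and 70 lay in blocks 5, 9 and 13. Without the Canton S-first array 2 features passed, and without the Zimbabwe53-first array 308, and leaving out any of 8 of the other arrays lowered the count to between 9 and 58. The count thus rested on the Canton S-first array and moved with several others. Among 17 named genes past the test, 13 of them in those blocks, the largest were CG2656 (0.92 ± 0.17), icln (0.84 ± 0.17), ImpE3 (0.84 ± 0.19), Imp (0.80 ± 0.17) and LeuRS-m (-0.80 ± 0.18, SE, adjusted p from 0.022 to 0.044 in limma). None of these 5 passed without the Canton S-first array, where each had an adjusted p of 1.0 in limma, nor with equal weights or scaled arrays, where it ranged from 0.069 to 0.16.

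Canton S and Zimbabwe53 were set beside the 7 other channel-exchanged pairs. Over 1855 features measured on all 16 arrays of such pairs, 5.5% were divergent between Canton S and Zimbabwe53 by the same rule, a share exceeded by 1 other pair. The shares were 7.82% for St Louis and Zimbabwe53, 4.85% for Oregon R and Zimbabwe53 and 2.43% for Zimbabwe30 and Zimbabwe53. They were 4.04% for Canton S and Hikone R, 3.88% for Canton S and Zimbabwe29, 3.07% for Canton S and Zimbabwe30 and 1.73% for Canton S and Oregon R. Each pair gave a single share, so the order of the pairs was not tested, and the pairs share their RNA pools. Pairs also differed in how well their 2 turned arrays correlated over these features. The correlation was 0.75 for Canton S and Zimbabwe53, highest for St Louis and Zimbabwe53 (0.84) and lowest for Canton S and Oregon R (0.41). The part of array precision in the shares was not tested.

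The unnamed features held the largest ratios. Of the 214 divergent features 174 had no gene symbol or several here, and the largest of these differed 8.52-fold. Beyond 4-fold in the mean were 23 unnamed features, of which 15 lay in the last 2 rows of the print blocks. Those rows held 108 measured features, 29 of them divergent, where 4.7% of all features were. Without them 185 divergent features were left. In the last row of blocks 1, 10 and 11, column 8 had means of -1.97, -2.02 and -1.88. Column 9 had -2.43, -2.33 and -2.30. The other arrays gave less, -0.59, -1.09 and -0.72 for column 8 and -1.28, -1.70 and -1.19 for column 9. Whether such spots are repeated printings of the same cDNA is not stated, and they are not replicates. At the threshold of 1.5-fold, CG6005 (0.74 and 0.59) and aay (-0.68 and -0.60) lay just inside, and CG13868 (0.77 and 0.58) and wal (-0.58 and -0.73) just outside.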

How the data were processed

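The series table held, as deposited, 1 log ratio per feature and array for 6101 features and 23 arrays, with every column tied to a sample (0 columns of no sample). Of the scanner, spot filter and normalization, nothing is given in the sources used here. No base is stated, and the deposited ratios were read as log10. The deposited medians were -0.00834 on the Canton S-first array and -0.00672 on the Zimbabwe53-first array, so the values were close to centred. The channel order of the ratio stays unknown. Spot intensities were not used, and precision is limited by how many arrays there were.

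The platform annotation gave 1 symbol for 1943 features, several for 67 and none for 4091. Each of the 1943 was found by its Entrez identifier in a Release 6 table, used for chromosome arms. Where a gene had more than 1 feature, that with values on most of the 23 arrays represented it (1332 genes).

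Values were converted to log2, each array was centred on its median, and the Zimbabwe53-first array was turned. Strain levels were fitted with limma 3.58.1 in R 4.3.3 to the 19 other arrays, averaged to 12 strain pairs and weighted by their number of arrays, after a dye offset per feature from the 7 other exchanged pairs. Features needed 9 of the 12 pairs and 3 complete exchanged pairs. A further fit to 13 pairs added a coefficient for the direct pair. Benjamini-Hochberg adjustment ran over all features of a fit. Title stems were fitted as a random block among the alternatives, since the labels name no batch.

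Genes named are the 15 with the largest mean on each side among divergent genes, the 5 on which the arrays differ most, members of 16 gene lists, and the 5 with the largest tested gap between direct and other arrays. The 5 divergent genes below the first 15 on the CG4757 side were added. Members and lists were chosen with earlier results of these data known.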

Additional observations from a re-analysis of the deposited data

How the results depend on the processing

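No paired analysis was possible because the replicate numbers of the arrays follow accession order only and so pair no arrays across groups. Some array titles share a stem of unstated meaning, and with the stem as a random block 724 features passed in the other arrays and 10 in the gap between direct and other arrays. The 214 divergent features became 20 when the ratios were read as log2, 365 when the mean alone had to pass 1.5-fold and 76 at 2-fold on each array, and from single arrays 337 to 692. For the 35 divergent genes these counts were 1, 72, 10, and 64 to 163. Without centring 38 genes were divergent, 34 of them among the 35, and with centring within print blocks 33, of which 31 were. With both arrays scaled to the same spread 27 were divergent, 26 of them among the 35. A dye offset from the arrays of a strain with itself gave 38, with 28 among the 35. That offset needed a value on both such arrays. Iml1, CG4230, CG7848, Hsp60B, DopEcR, CG40160 and Gem3 lacked one on 1 of them or both. These genes could not be assessed, and the other 28 stayed divergent. The share of divergent features on the Mipp1 side, 36.9%, ranged over these settings from 36.6% to 43.5%. The 611 features past the test in the other arrays became 328 among features complete on all 21 arrays and 1091 with the direct arrays included, and leaving out 1 array gave 403 (without the Canton S and Zimbabwe30 array with Zimbabwe30 in channel 1) to 708. The 97 features with a gap between direct and other arrays became 6 with equal weights, 10 with single arrays, 60 without centring, 1 with scaled arrays, 28 among complete features and 27 without print blocks 5, 9 and 13, a choice made after seeing the data. Leaving out 1 array gave 2 to 308, the extremes coming from the direct arrays. The count moved by over 1.5 times without 8 further arrays: 1 each of Zimbabwe30 and Zimbabwe53 (57), Canton S and Zimbabwe29 (58), Canton S and Hikone R (55), St Louis and Zimbabwe30 (52), Canton S and Zimbabwe2 (31) and Zimbabwe2 and Zimbabwe53 (9), and both of Canton S and Zimbabwe30 (31 and 21). From single arrays the values of APC7 ran from -0.68 to 2.20, of PCID2 from -0.50 to 1.83 and of Imp from -0.38 to 1.61, each turning to the CG4757 side without the Canton S-first array. No other cause of these shifts was tested beyond fewer arrays or features.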

Other observations

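Among the 1283 named genes in the fit to the other arrays, 106 passed the test without being divergent on the direct arrays. Of these 88 lay on 1 side on both direct arrays, where 72.3% of all features did. The genes given here were chosen after their values were seen. CG9297 (arm 3R) had 0.58 on the Canton S-first array and 0.83 on the Zimbabwe53-first array, and 1.02 ± 0.11 from the other arrays (SE, adjusted p = 3.5e-05 in limma). In CG5953 (arm 2L) the direct arrays gave -0.42 and -0.91, and the other arrays -1.08 ± 0.17 (SE, adjusted p = 0.00088 in limma). Hmgs (arm 2R), the hydroxymethylglutaryl-CoA synthase of the mevalonate pathway, had -0.65 and -0.55, and -0.50 ± 0.11 from the other arrays (SE, adjusted p = 0.0098 in limma). Jabba, a lipid droplet protein gene that anchors histones, had 0.44 and 0.15, and 0.61 ± 0.11 (SE, adjusted p = 0.0017 in limma). Crtc, a coactivator of CREB, had -0.30 and -0.36, and -0.49 ± 0.10 (SE, adjusted p = 0.007 in limma). The cyclic nucleotide-gated cation channel gene Ih had 0.30 on both arrays, and 0.52 ± 0.10 (SE, adjusted p = 0.0024 in limma).

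The part of a ratio that keeps its sign when the channels are exchanged holds dye and spot effects. Across features, which are not replicates, this part of the direct pair correlated at 0.53 with the array of Canton S with itself (4044 features) and at 0.30 with the array of Zimbabwe53 with itself (4018 features). On those arrays 1.27% and 0.617% of features lay beyond 1.5-fold, against 15.0% on the Canton S-first array and 6.94% on the Zimbabwe53-first array. Of 3773 features on both arrays of a strain with itself, 5 were beyond 1.5-fold with the same deposited sign on both.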
